A study of Rattus norvegicus with 3 samples.

Results

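Sst interneurons were taken from single-nucleus RNA profiles of rat brain by a rule on raw counts of unique molecular identifiers (UMIs, 1 per captured RNA molecule). A nucleus was a member if it had at least 500 detected genes, at least 1 UMI of Gad1 or Gad2, at least 2 UMIs summed over Sst, Crhbp and Elfn1 of which at least 1 was Sst, and no UMI of Vip, Slc17a7 or Slc17a6. The rule found 112 of 44950 nuclei, with 61 in the LPS library, 26 in the poly(I:C) library and 25 in the saline library. All rats were wild-type (WT) females of the outbred strain Crl:CD(SD), 12 weeks old, sampled 7 hours after injection into the peritoneum. One group received 5 mg/kg of lipopolysaccharide (LPS, a bacterial cell wall component), another 12 mg/kg of poly(I:C) (a synthetic double-stranded RNA), and the third received saline. Each group is 1 library made from the pooled brains of 4 animals, and nuclei were not assigned to animals. No test across animals was therefore possible, and no p-value is given. All 95% intervals below cover the counting error of UMIs or nuclei, not the variation between animals, preparations or nuclei, and UMIs of 1 nucleus are not independent. The labels name the tissue as brain with no region, so cortical, hippocampal, striatal and other Sst cells are mixed.

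Somatostatin interneurons are inhibitory neurons that make GABA through the glutamate decarboxylases Gad1 and Gad2 and release the peptide somatostatin, encoded by Sst. In the cortex many of them are Martinotti cells, whose axons contact the distal dendrites of excitatory neurons. They arise in the medial ganglionic eminence under the transcription factors Lhx6, Sox6 and Satb1, an origin they share with the parvalbumin (Pvalb) interneurons. Elfn1 is a postsynaptic adhesion protein that recruits presynaptic glutamate receptors such as Grm7 to the excitatory inputs of Sst cells, and Crhbp is a secreted protein that binds corticotropin-releasing hormone. LPS is sensed through Toll-like receptors and chiefly drives inflammatory cytokines. Double-stranded RNA strongly drives type I interferon, which switches on antiviral genes in most cell types.

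The 3 libraries held 11211 (LPS), 15001 (poly(I:C)) and 25435 (saline) barcodes, of which 10491, 13116 and 21343 in the same order of libraries had at least 500 detected genes. Depth differed between libraries, with medians of 2548 UMIs per nucleus after LPS, 1369 after poly(I:C) and 1321 after saline. Sst nuclei had medians of 2538 UMIs and 1376 genes in the LPS library, 1432 UMIs and 870 genes in the poly(I:C) library, and 1435 UMIs and 904 genes in the saline library. Their UMIs summed to 185501 after LPS, 45397 after poly(I:C) and 44357 after saline, so 3 UMIs corresponded to 16.2, 66.1 and 67.6 CPM in these sums (CPM, the UMIs of a gene scaled to a common total). The deepest single nucleus gave 5.28% of the LPS sum, 14.4% of the poly(I:C) sum and 10.2% of the saline sum. Barcode sequences were shared between libraries, 247 between LPS and poly(I:C), 420 between LPS and saline and 550 between poly(I:C) and saline. Of the Sst nuclei, 5 in the LPS library and 0 in the other 2 libraries had a barcode that was also present in another library.

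The share of nuclei that met the rule was 0.581% (Clopper-Pearson 95% interval 0.445 to 0.746) after LPS, 0.198% (0.130 to 0.290) after poly(I:C) and 0.117% (0.0758 to 0.173) after saline. Among nuclei with a Gad1 or Gad2 UMI, the shares were 2.54% of 2405 after LPS, 1.07% of 2424 after poly(I:C) and 0.671% of 3726 after saline. The rule needs several UMIs of weakly detected genes, so the share moves with depth. When every nucleus was thinned to 1000 UMIs before the rule was applied, 13 LPS nuclei (0.140%, 0.0744 to 0.239), 11 poly(I:C) nuclei (0.107%, 0.0536 to 0.192) and 11 saline nuclei (0.0720%, 0.0359 to 0.129) remained. This thinning left out 1181, 2878 and 6058 shallower nuclei of the LPS, poly(I:C) and saline libraries. The 3 thinned intervals overlap, but overlap is not a test of a difference. With 13, 11 and 11 nuclei these counts could not settle whether the shares differ, and the order of the libraries stayed the same.

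**Figure D1:**
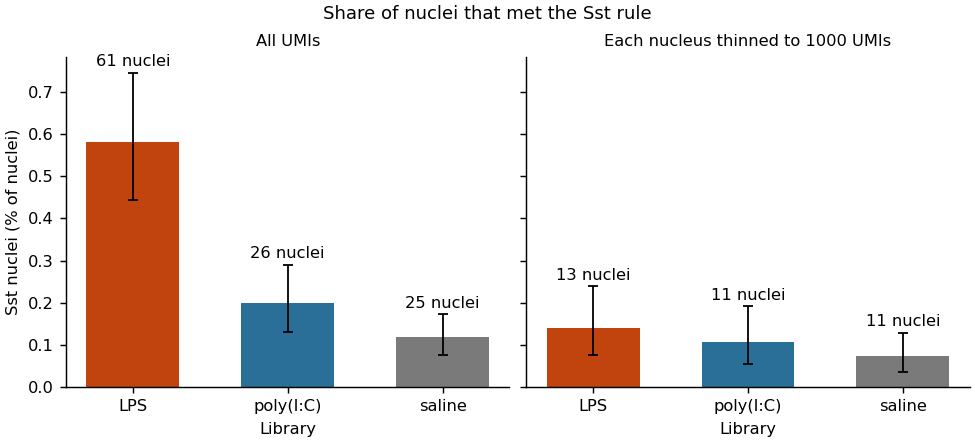
Share of nuclei meeting the Sst rule (y axis, % of nuclei) in each library, with all UMIs on the left and after thinning each nucleus to 1000 UMIs on the right. Left shares are of nuclei with at least 500 genes. Right shares are of the 9310 LPS, 10238 poly(I:C) and 15285 saline nuclei among them that had at least 1000 UMIs. Bars are single libraries and whiskers are exact 95% intervals for counting error. The left bars read 0.581% for LPS, 0.198% for poly(I:C) and 0.117% for saline, and the right bars 0.140%, 0.107% and 0.0720%.

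Most members passed the rule narrowly. The summed count over Sst, Crhbp and Elfn1 was exactly 2 in 28 of 61 LPS members, 17 of 26 poly(I:C) members and 17 of 25 saline members. A single Sst UMI was found in 22 LPS, 16 poly(I:C) and 15 saline members, and 3 or more in 10, 1 and 0. Just outside the rule stood 56 LPS, 43 poly(I:C) and 62 saline nuclei with a Gad UMI, 1 Sst UMI and no Crhbp or Elfn1 UMI. Sox6, a transcription factor of medial ganglionic eminence interneurons, read 797 CPM after LPS, 588 CPM after poly(I:C) and 534 CPM after saline in these outside nuclei. In members with 1 Sst UMI it read 1329, 1111 and 807 CPM, and in members with 2 or more 1571, 1257 and 1582 CPM, in the same order of libraries. Erbb4, a neuregulin receptor, read 4130, 2381 and 3547 CPM outside the rule, 1675, 1829 and 1114 CPM in members with 1 Sst UMI, and 2428, 1999 and 873 CPM in members with 2 or more. A further 4 LPS, 2 poly(I:C) and 4 saline nuclei met the Gad, Sst, Crhbp and Elfn1 conditions but had a Vip, Slc17a7 or Slc17a6 UMI.

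Sst RNA was not spread evenly over nuclei. Of nuclei with a Gad1 or Gad2 UMI, 5.16% after LPS, 3.05% after poly(I:C) and 2.52% after saline had an Sst UMI. Of nuclei with Slc17a7, the vesicular transporter of excitatory neurons, and no Gad UMI, it was 0.353%, 0.222% and 0.485%. These excitatory nuclei were deeper, with median UMI counts of 3552, 1770 and 1711 against 2521, 1300 and 1427 in the Gad nuclei. Oligodendrocyte-type nuclei, taken as at least 5 UMIs of myelin genes such as Mbp, Mog and Mobp with no Syt1 and no Gad UMI, had Sst in 0 of 357, 0 of 38 and 0 of 95, which by the exact interval allows shares of up to 1.03%, 9.25% and 3.81%. Their median depths were 909, 807.5 and 808 UMIs. Sst UMIs also lay outside the Gad nuclei. No Gad UMI was found in 76 of 200 LPS, 81 of 155 poly(I:C) and 138 of 232 saline nuclei with an Sst UMI. Members made up 30.5%, 16.8% and 10.8% of the nuclei with an Sst UMI, in the same order.

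The members carried genes of medial ganglionic eminence interneurons that the rule did not use. Nxph1, a secreted neurexin ligand of inhibitory neurons, was detected in 96.7% of LPS, 96.2% of poly(I:C) and 96.0% of saline members, against 16.4%, 14.7% and 18.7% of excitatory nuclei. Sox6 was detected in 85.2%, 73.1% and 72.0% of members, against 5.61%, 3.70% and 5.23% of excitatory nuclei. Lhx6, which specifies these cells, was sparse: 9 of 61 LPS, 2 of 26 poly(I:C) and 3 of 25 saline members had a UMI. After thinning to 1000 UMIs it was seen in 0 of 61 LPS members, which by the exact interval allows up to 5.87%, and in 1 of 21 poly(I:C) and 1 of 21 saline members. In excitatory nuclei Lhx6 was found in 0 of 1694 LPS nuclei, which allows a share of up to 0.218%, in 5 of 1351 poly(I:C) nuclei and in 8 of 2256 saline nuclei. The median depths of the excitatory nuclei were 3552, 1770 and 1709.5 UMIs, above the 2538, 1432 and 1435 of members. The part of depth in these shares was not tested. Of the label's genes outside Sst, Gad1 had 52, 19 and 12 UMIs, Crhbp 20, 12 and 10, and Elfn1 44, 18 and 16 in LPS, poly(I:C) and saline members. These counts belong to the rule and are given as a description.

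Within each library the Sst nuclei were set beside 3 other classes of neurons defined by UMIs. Pvalb-type nuclei (322 LPS, 248 poly(I:C), 364 saline) had a Gad UMI, no Sst, Vip or Adarb2 UMI and at least 2 UMIs over 6 genes of parvalbumin cells (Eya4, Adamts5, Syt2, Kcnc1, Pthlh and Cox6a2). Pvalb itself was not among these genes, so the class name does not rest on Pvalb RNA. Eya4 also had 58, 12 and 17 UMIs in LPS, poly(I:C) and saline Sst members. Sst cells without a captured Sst UMI may therefore have entered this class. Vip or Adarb2 nuclei (715, 552 and 907) had a Gad UMI, no Sst UMI and at least 3 UMIs of these markers of caudal ganglionic eminence interneurons. Neither class had a Slc17a7 or Slc17a6 UMI. Excitatory nuclei (1694, 1351 and 2256) had Slc17a7 and no Gad or Sst UMI. Genes used by a rule were left out of the comparison that rule defines. A gene was counted when its CPM ratio passed 2-fold in the same direction in all 3 libraries, with at least 20 UMIs over the pair in each. The 3 libraries differ in treatment and are not replicates.

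Against Pvalb-type nuclei, 38 of 3805 genes were higher in Sst nuclei (0.999%) and 71 were lower (1.87%). Man1a1, a Golgi mannosidase, was 4.54-fold higher after LPS, 5.81-fold after poly(I:C) and 6.42-fold after saline. Cdh4, an adhesion cadherin, was 5.09-, 5.17- and 6.07-fold higher in the same order. Reln, the secreted glycoprotein reelin, was 2.77-, 2.62- and 3.41-fold higher in Sst than in Pvalb-type nuclei. Erbb4 read 2135 CPM in Sst against 10086 CPM in Pvalb-type nuclei after LPS, 1894 against 9991 CPM after poly(I:C) and 1014 against 8225 CPM after saline. Ppargc1a, a regulator of mitochondrial genes, was also lower in Sst nuclei, at 0.425, 0.421 and 0.377 times the Pvalb-type level. Of 17 Sst identity genes measured in this comparison, 5 were higher, with Grin3a, Pde1a, Reln and Tacr1 among them, and 0 were lower.

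Against Vip or Adarb2 nuclei, 51 of 6047 genes were higher (0.843%) and 48 lower (0.794%). Sox6 was 6.47-, 4.63- and 4.50-fold higher in LPS, poly(I:C) and saline Sst nuclei. Grin3a, an NMDA receptor subunit, was 4.08-, 4.99- and 3.67-fold higher, and Trhde, which degrades thyrotropin-releasing hormone, 4.36-, 4.28- and 3.33-fold. Eya4 was 6.59-, 7.34- and 7.80-fold higher. Fgf13, a modulator of sodium channels, stood at 0.275, 0.313 and 0.256 times the Vip or Adarb2 level in the 3 libraries. Cnr1, the cannabinoid receptor of cholecystokinin interneurons, had 54 CPM after LPS, no UMI after poly(I:C) and 45 CPM after saline, against 275, 256 and 303 CPM in Vip or Adarb2 nuclei. Of 23 identity genes, 9 were higher (Calb1, Grin3a, Moxd1, Nxph1, Satb1, Sox6, Synpr, Tacr1 and Trhde) and 0 lower. Erbb4 was lower here too, at 0.377, 0.345 and 0.217 times.

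Against excitatory nuclei, 193 of 9063 genes were higher (2.13%) and 95 lower (1.05%). Sox6 was 45.1-, 39.2- and 25.5-fold higher and Nxph1 25.7-, 19.4- and 15.7-fold higher in LPS, poly(I:C) and saline Sst nuclei. Alk, a receptor tyrosine kinase, was 47.5-, 30.0- and 13.7-fold higher, and Kcnip1, an auxiliary subunit of A-type potassium channels, 22.1-, 21.1- and 17.3-fold. Among the lower genes Kcnq5, a potassium channel, stood at 0.25, 0.182 and 0.199 times the excitatory level, and Arpp21 at 0.101, 0.205 and 0.233 times. Of 20 identity genes, 13 were higher and 0 lower. None of the identity genes measured was lower by this criterion against any of the 3 classes.

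**Figure D2:**
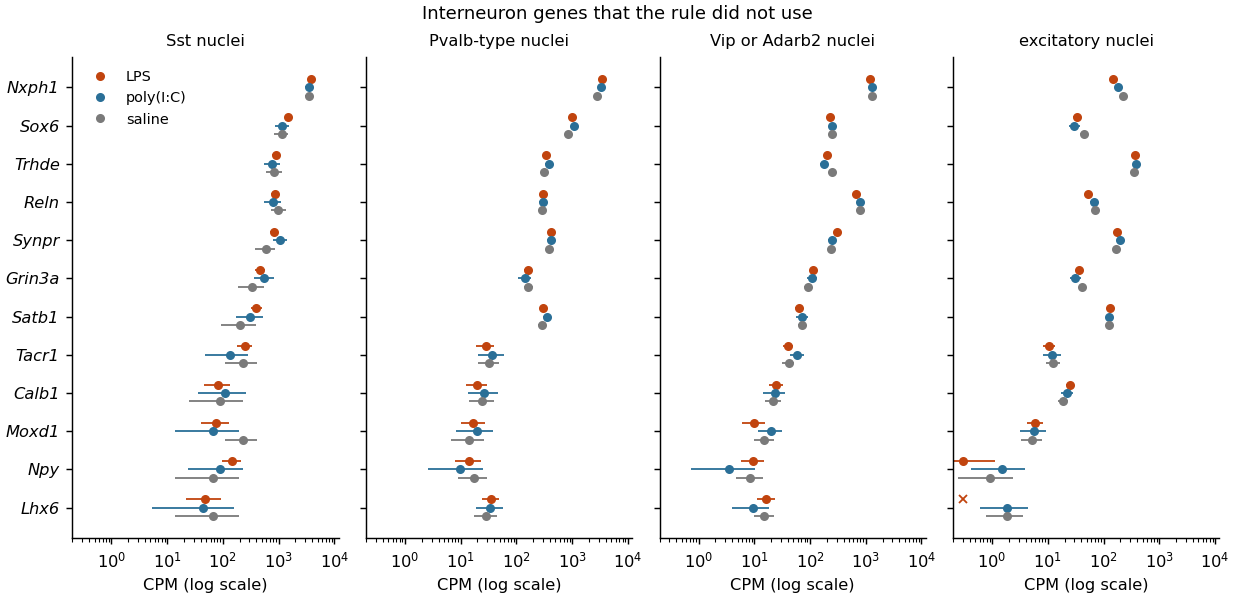
CPM on a log axis of 12 interneuron genes that the rule did not use, in Sst, Pvalb-type, Vip or Adarb2 and excitatory nuclei of each library. Points are summed counts of 1 library, lines are exact 95% Poisson intervals, and a cross marks 0 UMIs. Nxph1 sits at 3844 (LPS), 3546 (poly(I:C)) and 3517 CPM (saline) in Sst nuclei and at 150, 183 and 224 CPM in excitatory nuclei.

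The summed level of identity genes in Sst nuclei had intervals that included 1 in both comparisons with saline, and single genes varied around it. Nxph1 had 713 UMIs (3844 CPM) after LPS, 161 (3546 CPM) after poly(I:C) and 156 (3517 CPM) after saline, and its ratios to saline were 1.09 (0.92 to 1.31) for LPS and 1.01 (0.80 to 1.26) for poly(I:C). Synpr, a synaptic vesicle protein, had 154, 49 and 26 UMIs, 1.42 times saline (0.93 to 2.24) after LPS and 1.84 times (1.12 to 3.09) after poly(I:C). Summed over the identity list, the ratios were 1.09 (0.997 to 1.18) for LPS over saline and 1.02 (0.92 to 1.14) for poly(I:C) over saline. Without the highest nucleus of each library the LPS ratio was 1.10 (1.004 to 1.198), an interval that excludes 1. Of 17 identity genes with 20 UMIs over the LPS and saline pair, 1 passed 2-fold higher and 1 lower, beside 8.19% and 4.59% of all genes with 20 UMIs over that pair.

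The 112 nuclei were a mixture of Sst subtypes, as far as single UMIs show. Npy, neuropeptide Y, was detected in 18 nuclei and Nos1, neuronal nitric oxide synthase, in 11, and 7 nuclei had both, a pairing known from long-range projecting Sst neurons. Chodl, a marker of those cells, was found in 4 nuclei, 2 of them with Nos1. Reln and Grin3a were each detected in 63 nuclei and together in 42. Elfn1 was found in 59 nuclei, Crhbp in 34, and both in 15. By library, Npy was detected in 12 of 61 LPS, 4 of 26 poly(I:C) and 2 of 25 saline nuclei, and Reln in 34, 15 and 14. Detection is bounded by depth, and a nucleus without a UMI may still express the gene.

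Interferon-stimulated genes were higher in Sst nuclei after poly(I:C). The list of 66 genes found in the feature tables summed to 75 UMIs (404 CPM) after LPS, 40 UMIs (881 CPM) after poly(I:C) and 13 UMIs (293 CPM) after saline. The poly(I:C) level was 3.01 times that of saline (1.58 to 6.13), and the LPS level was 1.38 times that of saline (0.76 to 2.71). LPS over poly(I:C) was 0.46 (0.31 to 0.69). Adar, which edits double-stranded RNA and is expressed in resting neurons, held 29, 5 and 3 of these UMIs. No list gene had 20 UMIs over the poly(I:C) and saline pair, so none could be counted singly. Without Adar the ratios to saline were 3.42 (1.66 to 7.74) for poly(I:C) and 1.10 (0.55 to 2.44) for LPS.

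The interferon-stimulated UMIs were few per gene, and 1 poly(I:C) nucleus held 13 of the 40 found after poly(I:C). Oasl2, an antiviral protein of the oligoadenylate synthetase family, had 3 UMIs in 3 poly(I:C) nuclei and 0 in LPS and saline nuclei. Ifi27, an interferon-inducible mitochondrial protein, had 2, 3 and 0 UMIs in LPS, poly(I:C) and saline nuclei. Ddx58, which encodes the RNA sensor RIG-I, Parp9 and Parp12 each had 2 UMIs after poly(I:C) and 0 in the other 2 libraries. Ifit2, Ifit3, Rsad2 (viperin), Ifi44, Ifi35, Oas1k, Rnf213, Slfn2 and Lgals9 each had 1 UMI after poly(I:C) and 0 in the others. The UMIs of Ifit2, Ifit3, Rsad2 and Lgals9 lay in that 1 nucleus. Of the list, 19 genes had a UMI after LPS, 26 after poly(I:C) and 9 after saline. Between poly(I:C) and saline, whose sums are of like depth, 20 list genes had a UMI in poly(I:C) and not in saline nuclei and 3 the reverse, and several of the 20 were also seen after LPS, such as Trafd1 with 10 UMIs. Over all features seen in either of these libraries, 19.6% were seen in poly(I:C) but not saline nuclei and 21.2% the reverse. UMIs of 11 list genes lay in that 1 poly(I:C) nucleus, so the 20 genes were not independent detections. Other classic members, among them Mx1, Isg15, Irf7, Usp18, Gbp2 and Bst2, had no UMI in any Sst nucleus, and 32 of the 66 were at 0 in all 3 libraries.

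A single poly(I:C) nucleus carried 13 of the 40 list UMIs, over 11 genes (Herc6, Eif2ak2, Ifi27, Ifit2, Ifit3, Ifitm3, Lgals9, Oasl2, Parp12, Rsad2 and Trafd1), at a depth of 1699 UMIs. It had no UMI of the myelin genes that define oligodendrocyte-type nuclei and was not called a doublet by Scrublet. Whether it held RNA of another cell or free RNA was not tested. The other 27 list UMIs lay in 13 further nuclei, and 12 of the 26 poly(I:C) nuclei had none. In saline no nucleus had more than 2 list UMIs, and in LPS the highest, which was also the deepest, had 8. With the highest nucleus of each library left out, poly(I:C) over saline was 2.40 (1.15 to 5.35), and LPS over poly(I:C) was 0.617 with an interval that included 1. At least 1 list UMI was found in 68.9% of LPS, 53.8% of poly(I:C) and 40% of saline Sst nuclei. After thinning to 1000 UMIs these shares were 31.1% of 61, 52.4% of 21 and 19.0% of 21 nuclei.

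Promoters of the list were searched for the sequence that interferon signalling acts on, and 28 of 54 held it. Interferon activates a transcription factor complex that contains Stat2 and Irf9 and binds the interferon-stimulated response element (ISRE). The 250 bases before the first annotated start of each gene were searched for GAAANNGAAA on either strand (TTTCNNTTTC on the other), in RefSeq promoters of the rat build GRCr8. Of 27457 genes, 902 (3.29%) had a match. Of the 54 list genes with a promoter in that set, 28 (51.9%) did, and of the 17 matched genes with a UMI in poly(I:C) and none in saline nuclei, 9 (52.9%) did. Herc6, Parp9, Stat2 and Trafd1 were among those without a match. The list was compiled from genes known to respond to interferon, so this share describes the list. Stretches of 5 of these 9 promoters are shown as examples. All 5 genes were among the 11 list genes seen in the poly(I:C) nucleus with the most list UMIs. Each runs 5′ to 3′ on the strand of its gene, capitals mark the motif, and the count of bases is from the motif's first base to the start.
Ifit3, chr1:241527262-241527311, plus strand, motif 44 bases before the start: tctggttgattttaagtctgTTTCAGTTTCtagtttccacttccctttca
Oasl2, chr12:47383307-47383356, minus strand, motif 151 bases before the start: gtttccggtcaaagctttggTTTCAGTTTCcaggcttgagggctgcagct
Rsad2, chr6:48788238-48788287, minus strand, motif 147 bases before the start: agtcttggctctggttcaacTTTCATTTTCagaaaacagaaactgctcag
Parp12, chr4:68850542-68850579, minus strand, motif 18 bases before the start: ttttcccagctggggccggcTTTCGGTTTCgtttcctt
Ifi27, chr6:128355208-128355257, plus strand, motif 84 bases before the start: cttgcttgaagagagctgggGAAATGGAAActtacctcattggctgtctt
A match of letters is a description and not a bound site.

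The other neuron classes gave poly(I:C) ratios of similar size. Summed interferon-stimulated CPM was 371 (LPS), 924 (poly(I:C)) and 359 (saline) in Pvalb-type nuclei, 452, 1433 and 387 in Vip or Adarb2 nuclei, and 439, 1232 and 379 in excitatory nuclei. Poly(I:C) over saline was 2.58 (2.19 to 3.03), 3.70 (3.36 to 4.08) and 3.25 (3.06 to 3.45) in these classes. The ratio in Sst nuclei divided by that in the other class was 1.17 (0.60 to 2.43), 0.81 (0.42 to 1.67) and 0.93 (0.48 to 1.89). All 3 of these intervals include 1, and they would also include a difference of 1.5-fold either way.

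**Figure D3:**
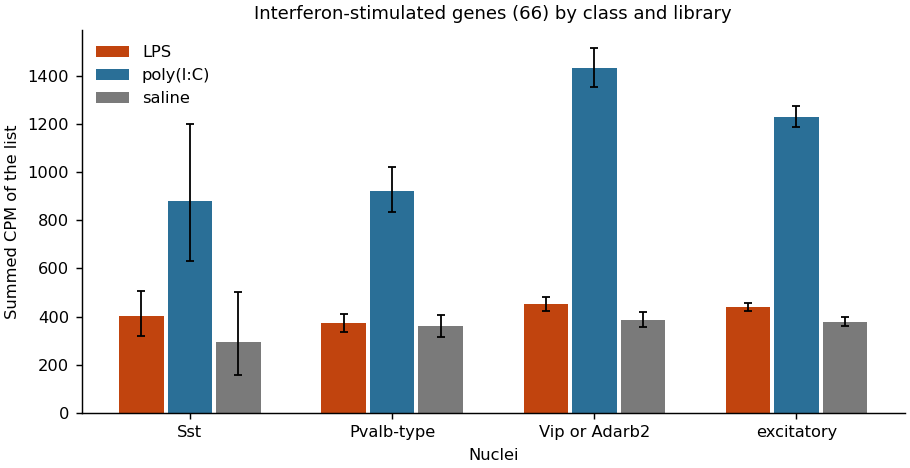
Summed CPM of the 66 interferon-stimulated genes (y axis) in Sst, Pvalb-type, Vip or Adarb2 and excitatory nuclei of each library. Bars are single libraries and whiskers are exact 95% Poisson intervals. In Sst nuclei the bars stand at 404 (LPS), 881 (poly(I:C)) and 293 CPM (saline).

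Oligodendrocyte RNA moved in the same direction as the poly(I:C) result. In Sst nuclei 13 oligodendrocyte markers summed to 41 UMIs (221 CPM) after LPS, 14 (308 CPM) after poly(I:C) and 4 (90.2 CPM) after saline, with 9, 7 and 3 of the 13 detected. The markers at 0 included Mag, Cnp, Ugt8 and Ermn after LPS, Mal, Opalin, Cnp, St18, Aspa and Ermn after poly(I:C), and 10 of the 13, with Mog and Mag among them, after saline. Oligodendrocyte-type nuclei had 1127, 8594 and 676 CPM of the interferon-stimulated list. In the members with no UMI of the myelin genes that define oligodendrocyte-type nuclei, poly(I:C) over saline was 4.04, from 35 and 10 list UMIs. Microglial markers summed to 11, 1 and 4 UMIs in LPS, poly(I:C) and saline members, endothelial markers to 4, 3 and 5, and oligodendrocyte precursor markers to 4, 5 and 2. Csf1r, P2ry12, C1qa and Pecam1 were at 0 in all 3 libraries. Astrocyte markers summed to 47, 14 and 15 UMIs, of which 31, 9 and 11 were Slc4a4, and Aldh1l1 was at 0 in all 3. Mural and fibroblast markers summed to 4, 7 and 2 UMIs, 3.42 times saline after poly(I:C) (0.65 to 33.7).

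Markers of other neuron classes were detected too. Vip interneuron markers summed to 1391 CPM after LPS, 2071 after poly(I:C) and 1150 after saline, 1.80 times saline (1.27 to 2.58) after poly(I:C), and Synpr, which the Sst identity list also holds, gave 154 of 258, 49 of 94 and 26 of 51 UMIs. Prox1, Htr3a and Calb2 were at 0 in all 3 libraries. Adarb2, also on this list and not excluded by the rule, had 59, 19 and 11 UMIs in 11, 2 and 6 members. A single nucleus held 36 of the LPS and another 17 of the poly(I:C) Adarb2 UMIs. Pvalb interneuron markers summed to 1763, 1145 and 1308 CPM, 1.35 times saline (1.02 to 1.81) after LPS, of which Tafa2 gave 157 of 327, 13 of 52 and 18 of 58 UMIs, and Syt2, Adamts5, Cox6a2 and Pthlh were at 0. Lamp5 interneuron, striatal projection and excitatory markers had intervals that included 1 in each comparison. The part of these markers in the results was not tested.

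LPS over saline compared 2199 genes with at least 20 UMIs over the pair. After LPS, 180 (8.19%) passed 2-fold on the higher side and 101 (4.59%) on the lower, around a median log2 ratio of -0.01. This balance depended on how small counts were handled, with 36 higher and 160 lower when 2 counts were added. The counting interval excluded 1 for 74 higher and 69 lower genes. When many genes are compared, some intervals exclude 1 by counting error alone. Such counts, here and in the other comparisons between libraries, are therefore not numbers of genes that differ. LPS and poly(I:C) were both set against the same saline library, so a low or high saline value appears in both comparisons. The genes named are the 10 on each side whose interval stood farthest from 1. They were picked as extremes of the ranking, and their intervals were not adjusted for the number of genes compared.

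On the higher side, Tenm3, Galntl6 and Fstl5 ranked first. Tenm3, a teneurin that guides synaptic partner choice, had 1012 UMIs (5456 CPM) after LPS, 209 (4604 CPM) after poly(I:C) and 121 (2728 CPM) after saline. It was 2.0-fold higher after LPS than after saline (1.65 to 2.44), and was found in 56 of 61 LPS, 22 of 26 poly(I:C) and 23 of 25 saline nuclei. Single nuclei held 146 of the LPS, 76 of the poly(I:C) and 21 of the saline Tenm3 UMIs, and without them the LPS over saline ratio was 1.96. Erbb4 had 396 UMIs (2135 CPM), 86 (1894 CPM) and 45 (1014 CPM), or 2.10-fold for LPS over saline (1.54 to 2.93). One LPS nucleus held 95 of the 396 Erbb4 UMIs, and 1 poly(I:C) nucleus 28 of the 86. Il1rapl2, a synaptic adhesion member of the interleukin-1 receptor family, had 96 UMIs (518 CPM) in 21 LPS nuclei, 40 (881 CPM) in 7 poly(I:C) nuclei and 7 (158 CPM) in 6 saline nuclei, or 3.28-fold for LPS over saline (1.53 to 8.38). Shisa6, an auxiliary subunit of AMPA receptors, had 169, 41 and 17 UMIs, a 2.38-fold difference of LPS from saline (1.44 to 4.18).

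Fstl5, a secreted follistatin-like protein, had 119 UMIs in 42 LPS nuclei, 13 in 9 poly(I:C) nuclei and 9 in 7 saline nuclei, 3.16-fold higher than in saline (1.61 to 7.08). Kdm6a, an X-linked histone demethylase, had 47 UMIs in 27 LPS nuclei, 6 in 6 poly(I:C) nuclei and 2 in 2 saline nuclei, or 5.62-fold (1.47 to 47.8). Galntl6, of the family that starts O-glycosylation, had 586, 126 and 66 UMIs, 2.12-fold (1.64 to 2.78). Nell1, a secreted glycoprotein, had 240, 52 and 28 UMIs, 2.05-fold (1.38 to 3.15). Lrpprc, which binds mitochondrial messenger RNA, had 24, 5 and 0 UMIs, and Togaram1, a microtubule protein of cilia, 24, 4 and 0. Both were 1.91-fold higher after LPS when 3 counts stand in for saline, and both intervals began at 1.44.

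The lower side was led by genes with few UMIs. Sorcs3, a sortilin-family sorting receptor, had 7 UMIs (37.7 CPM) after LPS, 9 (198 CPM) after poly(I:C) and 14 (316 CPM) after saline, 8.36-fold lower after LPS (3.16 to 24.5), and 1 saline nucleus held 6 of the 14. Chsy3, a chondroitin sulphate synthase, had 59 UMIs (318 CPM), 8 (176 CPM) and 33 (744 CPM), 2.34-fold lower after LPS (1.48 to 3.64). Nrg1, the ligand of Erbb4, had 183 UMIs (987 CPM) after LPS, 29 (639 CPM) after poly(I:C) and 78 (1758 CPM) after saline, 1.78-fold lower after LPS (1.35 to 2.34). A single saline nucleus held 37 of the 78 Nrg1 UMIs, and without the deepest nucleus of each library the LPS over saline ratio was 1.01, and without the nucleus highest in Nrg1 it was 0.804. Kcnn2, a calcium-activated potassium channel, was 2.60-fold lower (29, 21 and 18 UMIs, 1.36 to 4.83), Marchf4, a ubiquitin ligase, 2.56-fold (31, 14 and 19 UMIs, 1.37 to 4.68), and Nedd4l, another ubiquitin ligase, 2.36-fold (46, 10 and 26 UMIs, 1.40 to 3.90). After thinning, the LPS over saline ratios of Nrg1 (14 and 7 UMIs) and Nedd4l (4 and 1 UMIs) turned to 1.69 and 3.38.

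Shank2, a postsynaptic scaffold, was 2.41-fold lower after LPS than after saline (33, 4 and 19 UMIs in LPS, poly(I:C) and saline nuclei), and turned to 1.69 after thinning, from 2 and 1 UMIs. Tmtc1, a mannosyltransferase of the endoplasmic reticulum, was 4.6-fold lower (10, 4 and 11 UMIs), with 6 of the 11 saline UMIs in 1 nucleus. Kcne2, a potassium channel subunit abundant in choroid plexus, was 3.62-fold lower (15, 4 and 13 UMIs). Other ependymal and choroid plexus markers summed to 1, 0 and 1 UMIs, with Ttr and Folr1 at 0 in every library. Mt-cyb, encoded in the mitochondrial genome, was 2.96-fold lower (24, 6 and 17 UMIs), and mitochondrial genes made up 0.0911% of LPS, 0.0837% of poly(I:C) and 0.138% of saline member UMIs. The part of these mitochondrial and choroid values in the results was not tested.

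Poly(I:C) over saline compared 835 genes. After poly(I:C), 33 (3.95%) passed 2-fold on the higher side and 43 (5.15%) on the lower, around a median log2 ratio of 0.03. Intervals excluded 1 for 54 higher and 39 lower genes. Il1rapl2 led the higher side at 5.58-fold (2.47 to 14.8), but in 7 of 26 poly(I:C) and 6 of 25 saline nuclei. Afdn, the junction protein afadin, had 45 UMIs after LPS, 22 after poly(I:C) and 6 after saline, 3.58-fold for poly(I:C) over saline (1.41 to 10.8), and turned to 0.333 after thinning, from 1 and 3 UMIs. Spock3, a proteoglycan, had 176, 54 and 25 UMIs, 2.11-fold (1.29 to 3.54), in 23 of 26 poly(I:C) and 14 of 25 saline nuclei. Samd5 was 1.84-fold higher (287, 111 and 59 UMIs, 1.33 to 2.57), St6galnac5, a sialyltransferase, 3.71-fold (59, 19 and 5 UMIs, 1.34 to 12.7), and Nkain2, which binds the sodium pump, 1.64-fold (628, 220 and 131 UMIs, 1.32 to 2.05). The rest of the 10 were Galntl6 (1.87-fold), Tenm3 (1.69-fold, and 1.29-fold without the nucleus highest in Tenm3 in each library), Shisa6 (2.36-fold) and Erbb4 (1.87-fold), set against the same saline counts as for LPS.

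On the lower side after poly(I:C), Trpm3, Tafa1 and Chsy3 ranked first. Trpm3, a heat- and steroid-gated cation channel, had 184 UMIs (992 CPM) after LPS, 9 (198 CPM) after poly(I:C) and 37 (834 CPM) after saline, 4.21-fold lower after poly(I:C) than after saline (1.99 to 9.91). After thinning to 1000 UMIs before the rule, 5 poly(I:C) and 4 saline UMIs of Trpm3 were left, and the ratio turned to 1.25. Trpm3 was found in few nuclei, with 20 of 61 LPS, 4 of 26 poly(I:C) and 9 of 25 saline nuclei positive, and single nuclei held 34 of the LPS and 15 of the saline UMIs. Tafa1, a secreted chemokine-like protein, had 74, 5 and 25 UMIs, 5.12-fold lower (1.92 to 17.1), with 27 of the LPS and 10 of the saline UMIs in 1 nucleus each. Chsy3 was 4.22-fold lower (1.91 to 10.6), Shank2 4.86-fold (1.62 to 19.6) and Nrg1 2.75-fold (1.78 to 4.37).

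Rapgef6, an activator of Rap proteins, had 42, 3 and 17 UMIs in LPS, poly(I:C) and saline nuclei, 5.80-fold lower after poly(I:C) than after saline (1.68 to 30.9). Kmt2a, a histone methyltransferase, was 4.09-fold lower (46, 4 and 16 UMIs), and Snrnp70, a splicing factor, 2.41-fold (78, 14 and 33 UMIs). Cacna2d1, a calcium channel subunit, and Slit3, an axon guidance ligand, were each 3.24-fold lower, with 6 poly(I:C) and 19 saline UMIs. One saline nucleus held 9 of the 19 Cacna2d1 UMIs.

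LPS over poly(I:C), the comparison that does not use the saline library, took in 2182 genes, and 197 (9.03%) passed 2-fold on the higher side and 83 (3.80%) on the lower. Intervals excluded 1 for 70 higher and 94 lower genes, the opposite balance. With 2 counts added, 48 genes passed 2-fold higher and 142 lower, so the balance depended on how small counts were handled. Trpm3 was 5.00-fold higher after LPS (2.58 to 11.1). Tafa2, another secreted protein of the Tafa family, had 157, 13 and 18 UMIs in LPS, poly(I:C) and saline nuclei, 2.96-fold (1.68 to 5.67), and Cdh12, a cadherin, 234, 22 and 43 UMIs, 2.60-fold (1.68 to 4.23). Exoc2 and Trpc4 had a single poly(I:C) UMI each against 43 and 41 LPS UMIs, 10.5-fold (1.79 to 425) and 10.0-fold (1.70 to 406). Tshz2 (27 LPS UMIs), Oxct1 (26), Cwc27 (24) and Scn9a (24) had no poly(I:C) UMI. With 3 counts in place of 0 their ratios were 2.20, 2.12, 1.96 and 1.96. Their intervals began at 1.67, 1.61, 1.47 and 1.47. On the lower side Slc38a1, the neuronal glutamine transporter, had 11, 12 and 8 UMIs, 4.46-fold lower after LPS than after poly(I:C) (1.80 to 11.1), in 9 of 61 LPS and 10 of 26 poly(I:C) nuclei. Mctp1 was 2.40-fold lower (58, 34 and 24 UMIs, 1.52 to 3.72) and Kcnn2 2.96-fold (1.60 to 5.37). Plcxd3 and Caln1 had 8 of 16 and 8 of 15 of their poly(I:C) UMIs in 1 nucleus. Caln1 turned from lower to higher after LPS when Scrublet doublets were left out (2.36 times, from 11 and 1 UMIs).

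**Figure D4:**
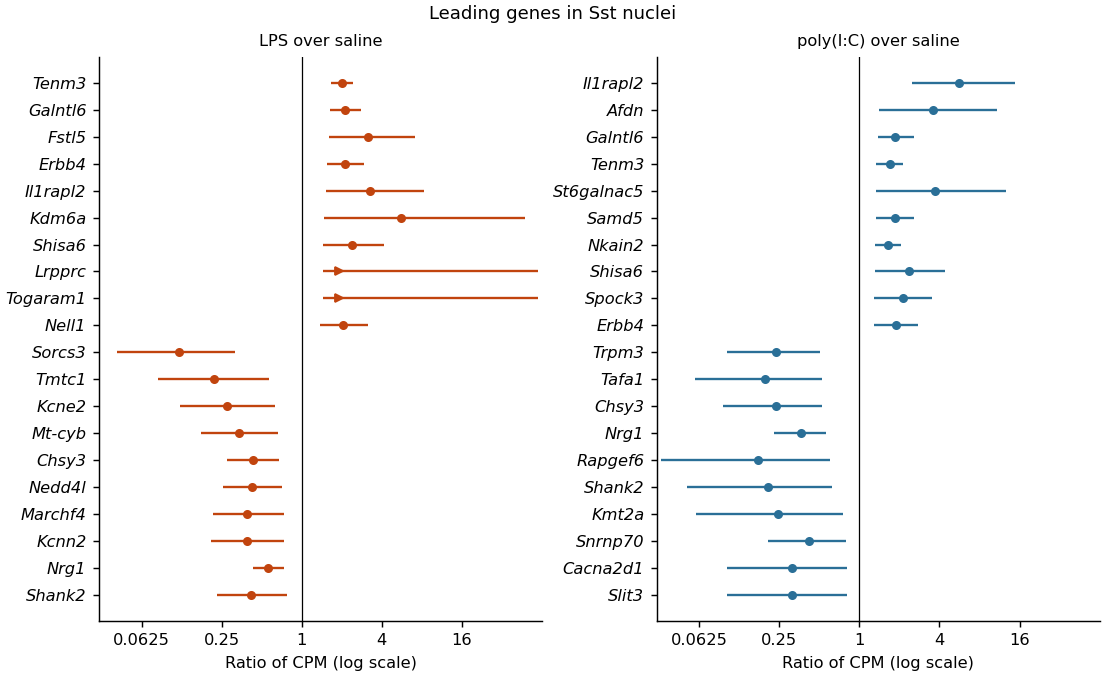
CPM ratios (log axis) in Sst nuclei for the 10 higher and 10 lower genes of LPS over saline (left) and poly(I:C) over saline (right), ranked by the interval bound nearest to 1. Points are ratios of summed counts, lines are exact 95% intervals for counting error, and triangles mark ratios with 3 counts in place of 0 UMIs. Long intervals are drawn up to 60. Tenm3 lies at 2.0 and 1.69, and Nrg1 at 0.561 and 0.363.

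Ratios of several of these genes in the other neuron classes stand beside those in Sst nuclei. For LPS over saline, Tenm3 stood at 1.10 in Pvalb-type, 0.89 in Vip or Adarb2 and 0.85 in excitatory nuclei, and Galntl6 at 1.18, 0.96 and 0.90. Chsy3 stood at 1.11, 1.05 and 0.93, and Kdm6a at 1.24, 1.20 and 1.16. For poly(I:C) over saline, Trpm3 stood at 0.71, 0.86 and 1.03 and Tafa1 at 0.47, 0.58 and 1.02. The named genes were picked for extreme ratios in Sst nuclei, and the other classes hold more UMIs, so these values are no test of a difference between classes.

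Immune genes outside the interferon list were too sparse in Sst nuclei for most statements. NF-kB targets summed to 30 UMIs after LPS, 10 after poly(I:C) and 5 after saline, with ratios to saline of 1.43 (0.55 to 4.74) and 1.95 (0.61 to 7.29). Genes of class I antigen presentation had 47, 10 and 7 UMIs, 1.61 times saline (0.72 to 4.21) after LPS and 1.40 times (0.48 to 4.32) after poly(I:C). Pdia3, a chaperone of class I loading, gave 23, 4 and 1 of these. The receptors and sensors for LPS and double-stranded RNA had 46, 12 and 9 UMIs, of which Traf3 gave 23, 3 and 4. Cytokine receptors had 139, 45 and 14 UMIs, 2.37 times saline (1.37 to 4.46) after LPS and 3.14 times (1.69 to 6.20) after poly(I:C). Most of those UMIs were Il1rapl2. Without it the ratios were 1.47 (0.66 to 3.87) and 0.70 (0.17 to 2.55).

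Stress and hormone lists gave intervals that included 1. Chaperones and stress genes had 136, 32 and 22 UMIs in LPS, poly(I:C) and saline nuclei, 1.48 times saline (0.94 to 2.44) after LPS and 1.42 times (0.80 to 2.57) after poly(I:C). Glucocorticoid-induced genes had 72, 12 and 11 UMIs, 1.57 times (0.82 to 3.27) and 1.07 times (0.43 to 2.67), and within them Zbtb16 had 23, 2 and 2. Immediate early genes had 106, 28 and 34 UMIs, 0.75 times (0.50 to 1.13) and 0.80 times (0.47 to 1.37). Circadian clock genes stood at 1.05 (0.82 to 1.35) and 0.95 (0.69 to 1.32), carried by Rora with 219, 46 and 52 UMIs. Cholesterol synthesis genes had 42, 22 and 17 UMIs and were lower after LPS than after poly(I:C), at 0.47 (0.27 to 0.82).

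Synaptic genes were detected more deeply. The release machinery summed to 6059, 1395 and 1256 UMIs in LPS, poly(I:C) and saline nuclei, 1.15 times saline (1.09 to 1.23) after LPS and 1.09 times (1.005 to 1.17) after poly(I:C). None of its 16 genes with 20 UMIs over the LPS and saline pair passed 2-fold in either direction, against 8.19% and 4.59% of all genes, and their median log2 ratio was 0.17. Nrxn3, a presynaptic adhesion receptor, gave 2769, 626 and 535 of these UMIs (14927, 13790 and 12061 CPM) and was 1.24 times saline (1.13 to 1.36) after LPS. The list of Elfn1 partners and related receptors was measured in RNA of the Sst nuclei, not of the presynaptic cells that Elfn1 contacts. Its genes, chiefly Grik2 (710, 114 and 150 UMIs), Grm7 (502, 107 and 114) and Grm8 (127, 23 and 25), summed to 1.11 times saline (0.98 to 1.27) after LPS. After poly(I:C) they stood at 0.83 times saline (0.69 to 0.98), and LPS over poly(I:C) was 1.35 (1.18 to 1.55). Among members with at least 2 Sst UMIs the poly(I:C) over saline ratio turned to 1.09, and without the highest nucleus of each library LPS over saline was 1.20 (1.05 to 1.38). Gria4, an AMPA receptor subunit, had 423, 110 and 65 UMIs, 1.56 times saline (1.20 to 2.05) after LPS and 1.65 times (1.21 to 2.28) after poly(I:C). Over all 23 glutamate receptor genes the ratios were 1.02 (0.96 to 1.10) and 0.99 (0.91 to 1.08).

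The summed UMIs of GABA-A receptor and GABA handling genes stood below saline after LPS, with intervals that included 1 once the highest nucleus of each library was left out. GABA-A receptor subunits summed to 596 UMIs (3213 CPM) after LPS, 155 (3414 CPM) after poly(I:C) and 179 (4035 CPM) after saline, 0.80 times saline (0.67 to 0.95) after LPS and 0.85 times (0.68 to 1.05) after poly(I:C). Of 9 subunits with 20 UMIs over the LPS and saline pair, 1 passed 2-fold and was lower, beside 4.59% of all genes: Gabra2 had 31, 8 and 17 UMIs, 0.44 times saline (0.23 to 0.84) after LPS. GABA handling genes summed to 328, 87 and 103 UMIs, 0.76 times saline (0.61 to 0.96) after LPS. Of its 15 detected genes 8 had more CPM after LPS, and 1 of 6 with 20 UMIs passed 2-fold lower. Its member Gabbr2, a GABA-B receptor subunit, had 67, 19 and 29 UMIs, 0.55 times (0.35 to 0.89). With the highest nucleus of each library left out, the interval reached both sides of 1 for the GABA-A list, at 0.87 (0.72 to 1.05), and for GABA handling, at 0.82 (0.64 to 1.05). Gad1 and Gad2 are part of the rule and were not compared.

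Channels and peptide genes gave few differences. The voltage-gated channel list was at 1.02 times saline (0.94 to 1.10) after LPS and 1.01 times (0.92 to 1.11) after poly(I:C). Within it Kcnc2, a potassium channel of fast-firing interneurons, had 321, 87 and 52 UMIs, 1.48 times saline (1.10 to 2.02) after LPS and 1.63 times (1.15 to 2.35) after poly(I:C), and Kcnma1, a large-conductance potassium channel, 197, 58 and 70 UMIs, 0.67 times (0.51 to 0.90) and 0.81 times (0.56 to 1.16). Genes that process and package neuropeptides were at 1.03 (0.87 to 1.22) and 0.89 (0.71 to 1.11). Pam, which amidates peptides, had 86, 20 and 35 UMIs, 0.59 times saline (0.39 to 0.90) after LPS and 0.56 times (0.31 to 0.99) after poly(I:C). Npy had 27, 4 and 3 UMIs, 2.15 times saline after LPS (0.66 to 11.1). Sst itself, which chose the nuclei, had 114, 37 and 35 UMIs. The somatostatin receptors had 6, 0 and 0 UMIs, too few for a ratio. Respiratory chain genes had 194, 39 and 38 UMIs, 1.22 times saline (0.86 to 1.78) after LPS and 1.003 times (0.62 to 1.61) after poly(I:C).

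**Figure D5:**
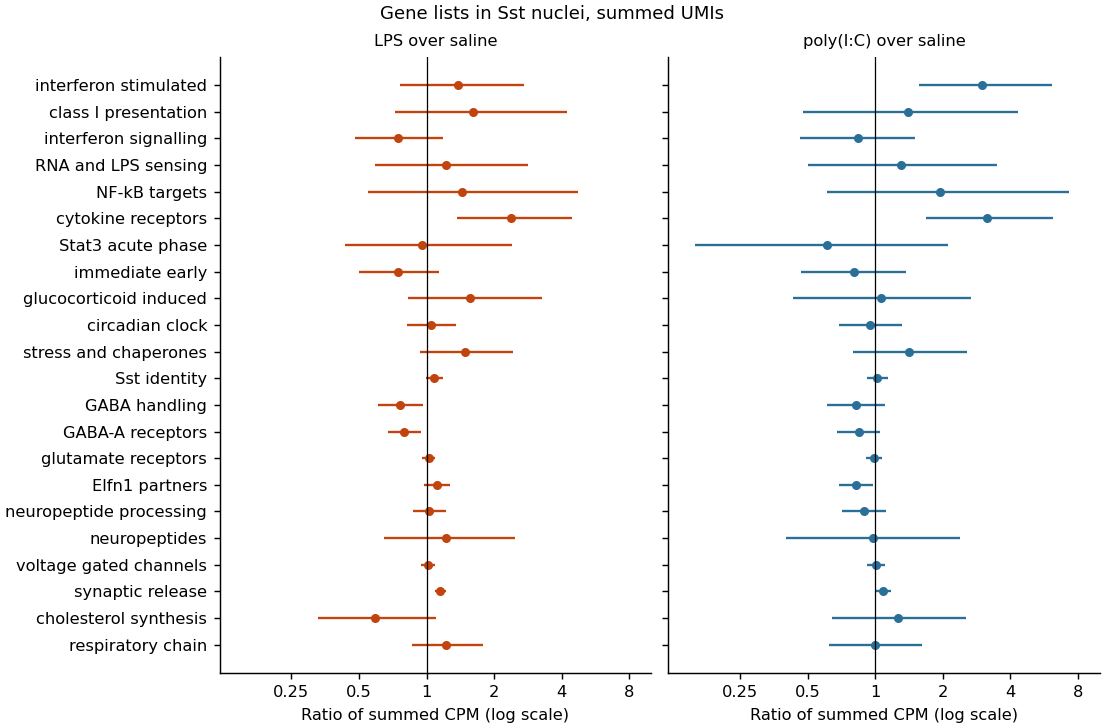
Ratio of summed CPM (log axis) for 22 gene lists in Sst nuclei, LPS over saline on the left and poly(I:C) over saline on the right, with 2 lists left out for having fewer than 5 saline UMIs. Points are single ratios and lines exact 95% intervals for counting error. The interferon-stimulated list lies at 1.38 for LPS and 3.01 for poly(I:C), and Sst identity genes lie at 1.09 and 1.02.

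Across the 24 lists, intervals lay above 1 for 2 lists and below 1 for 2 in LPS over saline, above for 3 and below for 1 in poly(I:C) over saline, and above for 2 and below for 2 in LPS over poly(I:C). No interval could be formed for 1, 2 and 2 lists. Against saline, the LPS lists above 1 were cytokine receptors and synaptic release, and the poly(I:C) lists above 1 were these and the interferon-stimulated genes. Il1rapl2 gave 96 of 139 LPS and 40 of 45 poly(I:C) UMIs of the cytokine receptor list. Without it the intervals of that list included 1 after LPS and after poly(I:C). Both comparisons used the same saline library.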

How the data were processed

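Single-nucleus libraries were made with 10x Genomics 5′ v2 chemistry, per the labels. As deposited, the values are UMI counts of features in each barcode, not normalized, which the authors made with Cell Ranger 7.0.0 on the build mRatBN7.2, per the submitters' processing notes. Barcodes with under 500 genes were left out. Counts of Sst nuclei were summed per library and scaled to CPM. Ratios carry exact conditional 95% intervals, and a group at 0 was set to 3 counts. Features needed 20 UMIs over a pair. The genes named are the 10 in each direction whose interval bound nearest 1 was farthest from it. Between neuron classes, the bound of the library nearest 1 was used. The planned list comparison over single genes was too sparse, so list UMIs were summed. The 3 libraries allow no test across animals, and nuclei were not used as replicates. Scrublet in scanpy 1.11.5 called 795 LPS, 1017 poly(I:C) and 897 saline nuclei doublets (7.58%, 7.75% and 4.20%), of which 7, 3 and 1 were Sst members. These were kept and left out as an alternative. The calculation used Python 3.11.15, numpy 2.4.6 and scipy 1.17.1, and was tested on simulated counts. Members and gene lists were chosen with earlier results of these data known. Of 682 list symbols 44 were not found in the 30560 features, of which 7162 carry only an Ensembl ID and stay unnamed. Reads of near-identical paralogs such as the Ifit and Oas genes may have been split or lost in the authors' counting, and antisense overlap was not separated. Free RNA was not removed. Some results are not reported here.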

Additional observations from a re-analysis of the deposited data

Results flagged for a closer look

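In 11 results a gene named for Sst nuclei stood on one side of 1 there and on the other side in another neuron class, where the 2 libraries differed by at least 25% of the lower one. Each is given as the Sst ratio divided by the class ratio, with a 95% interval for counting error. The differences were not tested across animals, and the genes were picked for their Sst ratio.

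For LPS over saline, Erbb4 was 2.10 in Sst and 0.605 in excitatory nuclei, a quotient of 3.48 (2.53 to 4.88). Il1rapl2 was 3.28 in Sst and 0.709 in Vip or Adarb2 nuclei, a quotient of 4.62 (2.13 to 11.9). Against the same class, Kcne2 was 0.276 and 1.29, a quotient of 0.213 (0.0906 to 0.509), and Nrg1 was 0.561 and 1.34, a quotient of 0.419 (0.319 to 0.556). Single nuclei held 95 of 396 LPS UMIs of Erbb4 and 37 of 78 saline UMIs of Nrg1.

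For poly(I:C) over saline, Shisa6 was 2.36 in Sst and 0.771 in Vip or Adarb2 nuclei, a quotient of 3.05 (1.63 to 5.92), and Rapgef6 was 0.172 and 1.32, a quotient of 0.131 (0.0243 to 0.461). Against excitatory nuclei, Spock3 was 2.11 and 0.790, a quotient of 2.67 (1.61 to 4.52), and Erbb4 was 1.87 and 0.758, a quotient of 2.46 (1.68 to 3.65).

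For LPS over poly(I:C), Kcnn2 was 0.338 in Sst and 1.49 in Pvalb-type nuclei, a quotient of 0.228 (0.115 to 0.455). Tshz2 had no poly(I:C) UMI in Sst nuclei, and the lower ends of its quotients were 2.31 against Vip or Adarb2 nuclei, where it stood at 0.715, and 2.26 against excitatory nuclei, where it stood at 0.737.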

How the results depend on the processing

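No paired analysis was possible because each group holds 1 library. Alternatives that leave out single nuclei, members with oligodendrocyte UMIs or members with shared barcodes, and the equal weighting of members, were chosen after seeing the data. The member share was 0.140% (LPS), 0.107% (poly(I:C)) and 0.0720% (saline) when nuclei were thinned to 1000 UMIs, and 0.372%, 0.0762% and 0.0469% with at least 2 Sst UMIs. Counts past 2-fold moved with the UMI floor. For LPS over saline they were 12 higher and 5 lower after thinning, 40 and 24 with a floor of 40 UMIs, 500 and 350 with a floor of 10, and 36 and 160 with 2 counts added. For poly(I:C) over saline they were 11 and 7 after thinning, 8 and 6 with a floor of 40, and 168 and 199 with a floor of 10, and 18 were lower with at least 2 Sst UMIs. For LPS over poly(I:C) they were 7 and 6 after thinning, 44 and 21 with a floor of 40, 539 and 314 with a floor of 10, and 48 and 142 with 2 counts added, and 155 were lower among members with 1000 genes. Thinned nuclei held 2, 21 and 3 UMIs of the interferon-stimulated list in LPS, poly(I:C) and saline, with ratios of 0.564 for LPS over saline, 7.0 for poly(I:C) over saline and 0.0806 for LPS over poly(I:C), and the last was 0.302 with at least 2 Sst UMIs. The poly(I:C) over saline ratio of that list lay between 2.40 and 4.04 under the other 12 alternatives. Thinning turned the direction of Nedd4l (3.38), Nrg1 (1.69) and Shank2 (1.69) for LPS over saline, of Afdn (0.333) and Trpm3 (1.25) for poly(I:C) over saline, and of Caln1 (1.69) for LPS over poly(I:C). Leaving out the deepest nucleus of each library gave 1.01 for Nrg1 in LPS over saline. Leaving out Scrublet doublets gave 0.697 for Tafa1 and 2.36 for Caln1 in LPS over poly(I:C). With at least 2 Sst UMIs the Elfn1 partner list was 1.09 for poly(I:C) over saline. In the class comparisons, 13 genes were higher and 33 lower than in Pvalb-type nuclei among members with 1000 genes, and 24 and 32 after thinning. Against Vip or Adarb2 nuclei they were 16 and 17 with 1000 genes, and 31 were lower after thinning. Against excitatory nuclei they were 128 and 39 with 1000 genes, and 117 and 51 after thinning. Thinning moved 30 and turned 6 of 57 named-gene results, and median-of-ratios scaling and 5% free RNA subtraction moved 0 of 60. Here a result moved if its ratio left its original counting interval. Scaling shifted log2 ratios by only 0.028 for LPS over saline, -0.044 for poly(I:C) over saline and 0.071 for LPS over poly(I:C). Such shifts are too small to leave these intervals, so the 0 for scaling is no sign of robustness. Whether the 5% subtraction was large enough to move a result was not tested. Fewer nuclei or UMIs enter the thinned and stricter settings. The cause of the other changes was not tested. Depth limits all of these values, since poly(I:C) and saline members hold 45397 and 44357 UMIs.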
